A study of Mus musculus with 8 samples.

Results

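Methyl groups on lysine 9 of histone H3 (H3K9) mark silent chromatin, and the enzymes that remove them open a gene for transcription. The genes described here are 9 H3K9 demethylases: Kdm3a, Kdm3b and Jmjd1c of the KDM3 family, Kdm4a, Kdm4b and Kdm4c of the KDM4 family, Phf2 and Phf8 of the PHF family, and Kdm1a, which encodes LSD1. They were found by gene symbol among the 23366 symbols of the deposited count table, 9 of 9 were present, and together they had 14 rows, 1 row for each RefSeq transcript. Where a gene had more than 1 row, the one with the most counts summed over all 8 libraries stood for it.

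The KDM3, KDM4 and PHF proteins carry a Jumonji C (JmjC) domain, which needs iron, oxygen and 2-oxoglutarate, a product of the tricarboxylic acid cycle, so their activity is tied to metabolism. LSD1 works by another chemistry, with the flavin cofactor FAD. In general KDM3 proteins act on mono- and dimethylated H3K9, KDM4 proteins on the trimethylated form, and PHF proteins combine a JmjC domain with a PHD finger that binds methylated histone H3 lysine 4.

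The cells were MEFs, fibroblasts cultured from mouse embryos, of the C57BL/6 strain at passages 3 to 5, and their RNA was sequenced. The 4 groups of 2 libraries were fed wild type (WT), starved WT, fed kdm3a KO and starved kdm3a KO. Fed cells (0 h) were in DMEM with 10% FBS, and starved cells spent 12 h in DMEM without glucose with 10% dialyzed FBS. In what follows, starvation therefore means the missing glucose, the dialyzed serum and the elapsed 12 h together, which this design cannot tell apart. The labels give neither the knockout allele nor the sex of the embryos. They also do not say whether replicates are separate cultures, so the p-values may reflect technical spread only.

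Libraries held 38407520 to 53602289 counts with 1 row per gene, and replicates correlated at r = 0.9982 to 0.9988 across genes (which are not independent replicates) on log2(CPM + 1), where CPM is the count scaled to library size after TMM normalization. Groups correlated less, at 0.8646 to 0.9299. Of 15 fibroblast markers, 14 were detected in every library, and the other, Lum, had 2 and 0 counts in fed and 0 and 0 in starved WT. Their summed level was 20900 to 22300 CPM in WT and 12700 to 14300 CPM in KO-labelled cells, but members moved in opposite ways with starvation: 10 fell and 3 rose in WT, 13 fell and 2 rose in KO-labelled cells. By the test given below, 44.8% of all genes tested fell and 36.7% rose in WT, and 40.3% and 39.4% in KO-labelled cells. Col1a1 went from 4752 and 4572 CPM in fed WT to 240.4 and 254.6 CPM in starved WT, while Vim went from 4400 and 4395 to 11400 and 11320 CPM. The other marker lists summed to lower levels, but not evenly over the groups. Macrophage and blood markers summed to 52.9 to 53.8 CPM in starved KO-labelled and 7 to 21.7 CPM in the other libraries, with Ptprc, Emr1 and Hbb-b1 at 0. Most of the former was Cd68, at 40.9 and 40.68 CPM. Neural markers summed to 248 to 249 CPM in fed WT and 57.9 to 107 CPM elsewhere, with Sox10 at 0. In fed WT Nes stood at 176.4 and 176.7 CPM and Map2 at 56.07 and 57.67 CPM. The endothelial list summed to 52.9 to 54.9 CPM in starved WT and 2.29 to 5.5 CPM elsewhere, nearly all of it Kdr, with Tie1 and Emcn at 0. The part of these markers in the results below was not tested. Reads from the Y chromosome (Uty, Kdm5d, Eif2s3y, Ddx3y) numbered 296 to 1251 per gene and library in WT but 0 to 2 in KO-labelled cells, while Xist ran from 0.939 to 1.54 CPM in WT and from 869 to 1370 CPM in the KO-labelled libraries. Genotype and sex therefore cannot be told apart in any comparison between genotypes, and neither can genotype and the embryos the cells came from.

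Promoter sequences were taken from RefSeq (GRCm38.p6) for the 7 of the 9 genes that the table held, all but Kdm3b and Kdm4b, as the 250 bases before each annotated start. They were searched on both strands for ACGTG and GCGTG, the core of the hypoxia response element bound by HIF, CACGTG, an E-box that contains ACGTG, TGATGNAA, the composite element of ATF4, and TGACGTCA, the cAMP response element. Of 32851 promoters in the table, 16.6% held ACGTG, 28.2% GCGTG, 6.02% CACGTG, 3.45% TGATGNAA and 1.55% TGACGTCA. The promoters of Kdm3a, Kdm4c and Phf8 are shown because these genes had, among the 9, the largest rise in starved WT cells (Kdm3a), the largest number of matches (Kdm4c) and the only 2-fold fall (Phf8). Capitals mark matches on either strand, a minus-strand GCGTG reading CACGC, and each sequence runs 5′ to 3′ toward the start.
Kdm3a, chr6:71632991-71633167, minus strand: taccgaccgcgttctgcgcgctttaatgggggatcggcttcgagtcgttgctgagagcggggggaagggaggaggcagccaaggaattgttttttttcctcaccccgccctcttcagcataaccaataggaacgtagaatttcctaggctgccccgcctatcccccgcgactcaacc
Kdm3a site, chr6:71632927-71632956, minus strand: ccgggaggctgtGCGTGtcttgtgagagag
Kdm4c, chr4:74251715-74251878, plus strand: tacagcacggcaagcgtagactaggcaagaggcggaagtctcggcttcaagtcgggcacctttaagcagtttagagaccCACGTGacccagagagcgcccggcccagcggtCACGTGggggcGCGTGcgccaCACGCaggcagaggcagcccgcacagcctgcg
Phf8, chrX:151520422-151520671, plus strand: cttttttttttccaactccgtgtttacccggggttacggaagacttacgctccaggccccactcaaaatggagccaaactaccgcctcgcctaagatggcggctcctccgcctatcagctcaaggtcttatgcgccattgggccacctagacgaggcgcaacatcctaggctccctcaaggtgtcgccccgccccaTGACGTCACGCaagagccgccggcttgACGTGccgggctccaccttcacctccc

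Kdm3a has 3 annotated starts in the table. The one shown lies 12 bases from the start of NM_001038695, and the other two, among them that of NM_173001, the transcript whose row gave the Kdm3a values below, held no match. The stretch of 177 bases held none of the searched letters, and the single match at that start was a GCGTG 27 to 23 bases before it, inside an annotated exon and shown as a site of 30 bases. The Kdm4c window held CACGTG at 85 to 80 and 53 to 48 bases before the start, with GCGTG at 42 to 38 and, on the minus strand, at 32 to 28. This is one of 2 annotated Kdm4c starts, and the other held no match. The Phf8 window held TGACGTCA at 54 to 47 bases, overlapping a minus-strand GCGTG at 48 to 44, and ACGTG at 27 to 23. Among the promoters not printed, Kdm1a held TGATGNAA at 192 to 185 bases before its start and Jmjd1c held GCGTG at 1 of its 2 starts, and its transcript rows do not tell the starts apart. Kdm4a and Phf2 held no match. All 250 bases of the Phf2 window lay inside annotated exons, and its start was 234 bases from that of the counted transcript. A match describes the letters only, and no measurement of binding was made here.

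In WT cells, starvation raised 8 of the 9 demethylases and lowered 1, Phf8. The rises reached 3.21-fold for Kdm3a, 3.02-fold for Kdm4b, 2.83-fold for Kdm4c and 2.32-fold for Jmjd1c, while Phf8 ended 2.1-fold lower. In KO-labelled cells 5 rose, 1 fell, 3 did not pass the test, and no log2 fold change exceeded 0.64. These calls, and all adjusted p-values below, come from edgeR's quasi-likelihood test with Benjamini-Hochberg adjustment over 14418 genes at 0.05. Most genes changed in these libraries, so the counts are set against that background: 81.6% of all genes tested were called in WT cells (36.7% higher, 44.8% lower) and 79.7% in KO-labelled cells (39.4% higher, 40.3% lower). The 9 of 9 and 6 of 9 called members are near those shares. The median log2 fold change of the 9 was 0.45 in WT and 0.26 in KO-labelled cells, against -0.17 and -0.017 for all genes tested.

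The sizes depend on the scaling. Scaled by library totals instead of TMM, the median gene stood at -0.63 in WT cells and -0.27 in KO-labelled cells, and only 28.2% and 37.0% of the calls were higher, against 45.0% and 49.4% with TMM. Under that scaling 4 of the 9 were called higher and 3 lower in starved WT cells. Kdm3a, Jmjd1c, Kdm4b and Kdm4c remained higher by 0.76 to 1.23 on the log2 scale and Phf8 remained lower, whereas the smaller rises of Kdm3b, Kdm4a, Phf2 and Kdm1a turned negative. In starved KO-labelled cells 4 of the 9 were called higher (Jmjd1c, Kdm4a, Kdm4b and Kdm4c) and 4 lower (Kdm3b, Phf2, Phf8 and Kdm1a) with library totals.

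**Figure D1:**
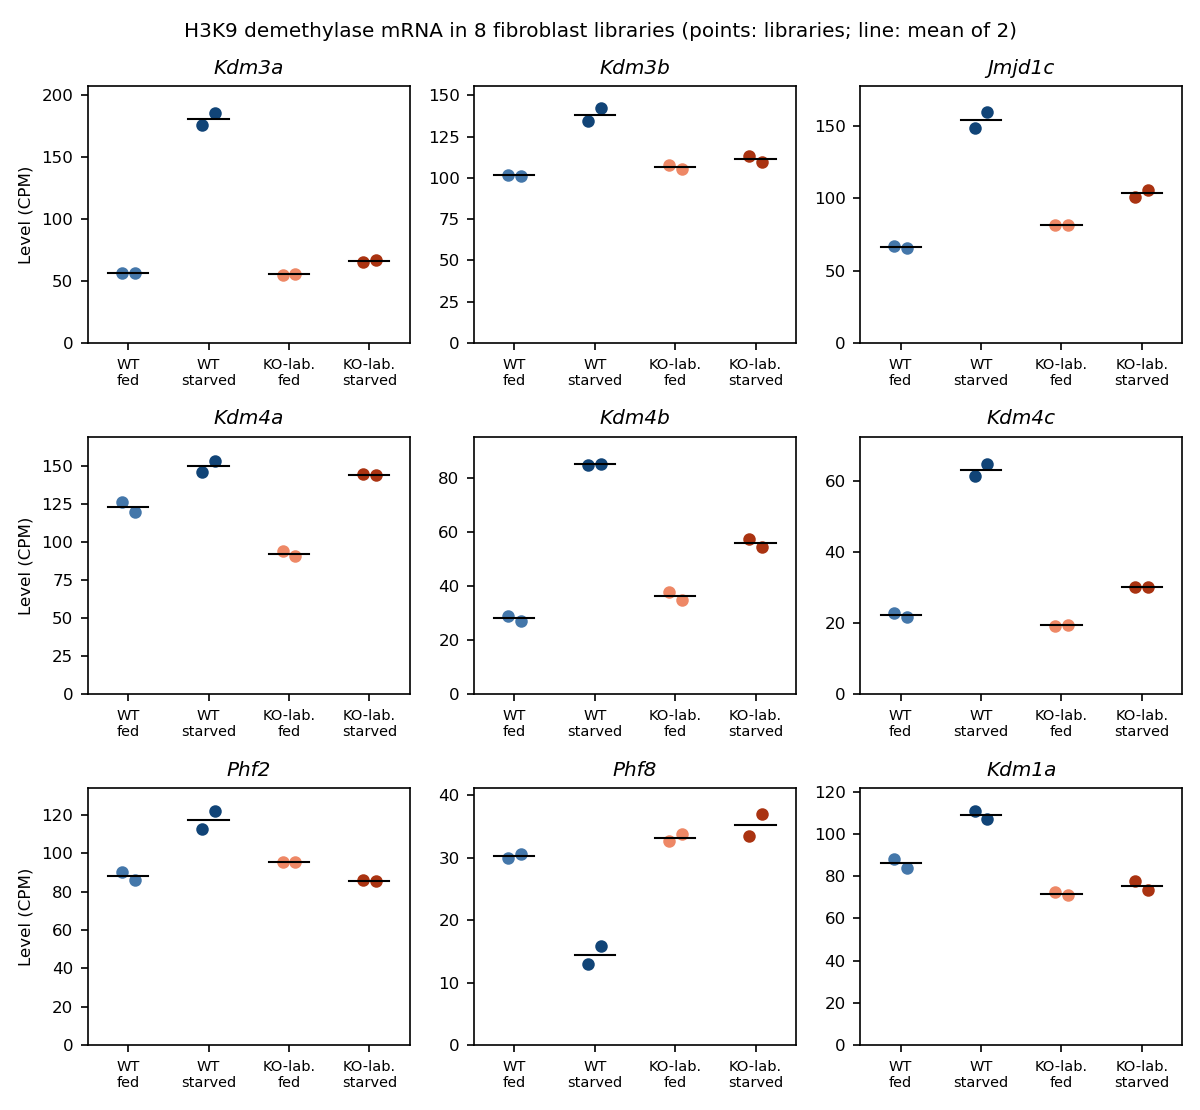
Levels of the 9 demethylases in CPM on linear axes that start at 0, with 1 panel per gene, 1 point per library and a line at the mean of each group of 2 (KO-lab. stands for KO-labelled). Kdm3a stood at 175.8 and 185.4 CPM in starved WT and at 55.18 to 66.74 CPM in the other 6 libraries, and Phf8 was lowest in starved WT at 13.02 and 15.81 CPM.

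Kdm3a, the gene targeted in the knockout, encodes a demethylase of mono- and dimethylated H3K9 known for roles in spermatogenesis, energy metabolism and the response to hypoxia. Its level was 56.09 and 56.38 CPM in fed WT, 175.8 and 185.4 CPM in starved WT, 55.18 and 55.43 CPM in fed KO-labelled and 65.42 and 66.74 CPM in starved KO-labelled cells. The starved WT libraries lay far above all others, and the fed KO-labelled libraries lay just below the fed WT ones. These were 2422, 2356, 5724, 6121, 3405, 2788, 2951 and 3532 counts in the same order.

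Kdm3a transcript counts thus did not mark the knockout in fed cells. The KO-labelled libraries differed from WT by -0.02 ± 0.043 (SE) on the log2 scale (adjusted p = 0.619), with a 95% interval of -0.11 to 0.065. Counts summed along a transcript would miss a deleted exon or an absent protein, so these reads do not check the label, and directions between genotypes rest on the label. Starvation raised Kdm3a by 1.68 ± 0.042 in WT cells (adjusted p = 2.39e-19) and by 0.26 ± 0.042 in KO-labelled cells (adjusted p = 9.49e-06), the latter not called with library totals, where it was 0.0016 (adjusted p = 0.976). In starved cells Kdm3a was 2.73-fold lower in the KO-labelled libraries (log2 fold change -1.45 ± 0.041, adjusted p = 3.74e-18).

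Kdm3a had 2 rows, for the transcripts NM_001038695 and NM_173001. Their counts differed by only 1 to 9 in each library, so both rows counted nearly the same reads and neither gives a separate isoform level. With every transcript row kept as its own feature, the log2 fold changes of both rows were 1.69 for starvation in WT and 0.28 in KO-labelled cells, and -0.03 and -1.44 for genotype in fed and starved cells. The rows of Jmjd1c and Kdm4c were nearly identical in the same way, the lower row holding 99.2% to 100% and 99.1% to 99.7% of the upper, whereas the second row of Kdm4a, NM_172382, held 66% to 70.8%.

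Kdm3b, a broadly expressed relative of Kdm3a, changed little. It stood at 102 and 101 CPM in fed WT, 134.2 and 142.1 in starved WT, 108 and 105.5 in fed KO-labelled and 113.3 and 109.9 CPM in starved KO-labelled cells. Starved WT was the highest group and the other 3 groups lay within 101 to 113.3 CPM. Starvation raised it by 0.45 ± 0.039 in WT cells (adjusted p = 1.04e-09), whereas in KO-labelled cells the log2 fold change was 0.06 (interval -0.016 to 0.14, adjusted p = 0.133).

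Jmjd1c, the largest member of the KDM3 family, followed Kdm3a more closely in WT cells. Its levels were 67.09 and 65.59 CPM in fed WT, 148.3 and 159.7 in starved WT, 81.25 and 81.25 in fed KO-labelled and 101.2 and 105.8 CPM in starved KO-labelled cells. No groups overlapped. In single comparisons of 2 groups the same held for 87.3% to 90.0% of all genes tested, and the share over all groups at once was not computed. Starvation raised it by 1.21 ± 0.043 in WT (adjusted p = 1.37e-16) and by 0.35 ± 0.042 in KO-labelled cells (adjusted p = 1.37e-07). The annotated locus overlaps Reep3, and without strand the reads of an overlap cannot be told apart.

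Per kilobase of transcript, the balance within the KDM3 family lay further towards Kdm3a in starved WT cells. Kdm3a made up 32.7% and 33.1% of the summed CPM per kilobase of the 3 KDM3 genes in fed WT, 48.6% and 48.3% in starved WT, 30.1% and 30.5% in fed KO-labelled, and 31.3% and 31.7% in starved KO-labelled libraries. Because each share is taken within a library, it does not depend on the scaling. The starved WT shares stood apart from all 6 others, which lay within 30.1% to 33.1%. Kdm3b moved the other way, from 45.3% and 45.2% in fed WT to 28.3% and 28.2% in starved WT, while Jmjd1c stayed within 21.7% to 23.5% in WT cells.

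The KDM4 genes encode enzymes that remove trimethyl marks from H3K9 and, for Kdm4a to Kdm4c, from H3K36. Kdm4a stood at 126 and 119.5 CPM in fed WT, 145.7 and 153.1 in starved WT, 93.63 and 90.71 in fed KO-labelled and 144.5 and 143.6 CPM in starved KO-labelled cells. It was lowest in fed KO-labelled cells, and the starved groups lay close together. Kdm4a alone among the JmjC genes rose more in KO-labelled cells (0.64 ± 0.039, adjusted p = 1.68e-12) than in WT (0.28 ± 0.039, adjusted p = 1.06e-06), the difference of 0.36 passing its own test (adjusted p = 7.7e-06) but falling to 0.20 without starved WT replicate 1.

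Kdm4b, a gene known to be induced by hypoxia, stood at 29.06 and 27.23 CPM in fed WT, 84.93 and 85.36 in starved WT, 37.69 and 34.83 in fed KO-labelled and 57.35 and 54.65 CPM in starved KO-labelled cells. No groups overlapped, starved WT being highest and fed WT lowest. In single comparisons of 2 groups, 87.3% to 90.0% of all genes tested did not overlap either, a share not computed over all groups at once. Its rise was 1.60 ± 0.055 in WT (adjusted p = 6.63e-17) and 0.62 ± 0.052 in KO-labelled cells (adjusted p = 4.01e-10).

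Kdm4c stood at 22.79 and 21.7 CPM in fed WT, 61.44 and 64.64 in starved WT, 19.19 and 19.36 in fed KO-labelled and 29.99 and 30.16 CPM in starved KO-labelled cells. The starved WT libraries were again the highest, and no groups overlapped. The background of 87.3% to 90.0% of all genes tested is again for single comparisons, not for all groups at once. Starvation raised it by 1.5 ± 0.06 in WT (adjusted p = 8.64e-16) and by 0.64 ± 0.06 in KO-labelled cells (adjusted p = 2.85e-09). Within the KDM4 family, Kdm4a made up 69.6% and 69.7% of the CPM per kilobase in fed WT, 48.5% and 49.1% in starved WT, and 61.1% to 61.7% in the 4 KO-labelled libraries, fed or starved.

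**Figure D2:**
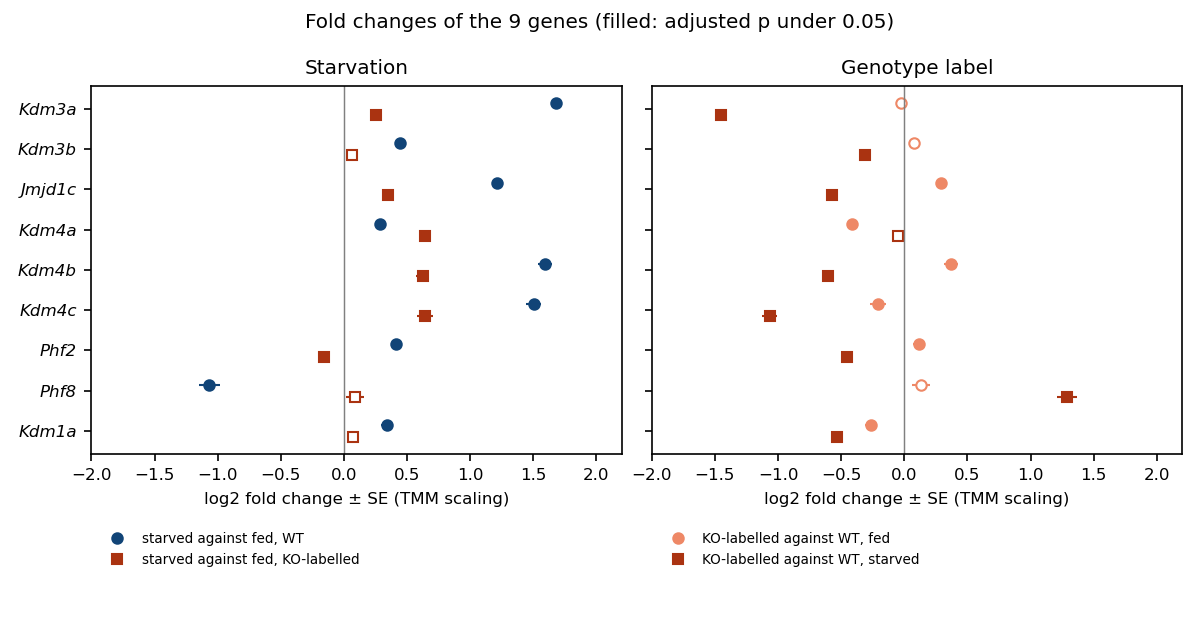
Log2 fold changes of the 9 demethylases with standard errors as bars, for starvation on the left (circles WT, squares KO-labelled) and for KO-labelled against WT on the right (circles fed, squares starved); filled symbols passed the test at 0.05. The left panel spans 1.68 (Kdm3a) to -1.07 (Phf8) in WT cells, and in the right panel the starved symbols lie left of 0 except that of Phf8 at 1.29.

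The PHF genes moved in opposite directions in starved WT cells. Phf2, which encodes a demethylase of H3K9 in the promoters of active genes, stood at 90.07 and 86.27 CPM in fed WT, 112.7 and 122.4 in starved WT, 95.43 and 95.6 in fed KO-labelled and 85.97 and 85.75 CPM in starved KO-labelled cells. Its highest libraries were the starved WT ones and its lowest the starved KO-labelled ones. Starvation raised it by 0.41 ± 0.043 in WT (adjusted p = 1.54e-08) and lowered it in KO-labelled cells, where the log2 fold change was -0.15 ± 0.042 (adjusted p = 0.00244).

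Phf8, an X-linked gene whose human counterpart is mutated in a form of intellectual disability, was the one member that fell with starvation in WT cells. Its levels were 29.88 and 30.56 CPM in fed WT, 13.02 and 15.81 in starved WT, 32.68 and 33.7 in fed KO-labelled and 33.5 and 36.89 CPM in starved KO-labelled cells. The starved WT libraries were lowest, and the fed and starved KO-labelled libraries overlapped. The log2 fold change was -1.07 ± 0.083 in WT (adjusted p = 1.09e-10) and 0.09 in KO-labelled cells (interval -0.059 to 0.23, adjusted p = 0.261). Its second row, NM_177201, held 46.0% to 48.8% of the counts of the first in 6 libraries and 53.1% and 51.9% in starved WT.

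Kdm1a encodes LSD1, which removes methyl groups from H3K4 and, with certain partners, from H3K9. It stood at 88.37 and 84.02 CPM in fed WT, 110.8 and 107 in starved WT, 72.56 and 70.91 in fed KO-labelled and 77.59 and 73.43 CPM in starved KO-labelled cells. All 4 WT libraries lay above all 4 KO-labelled ones. Between genotypes, 87.3% of all genes tested did not overlap in fed and 88.1% in starved cells. The share for 4 against 4 libraries was not computed. Starvation raised it by 0.34 ± 0.044 in WT (adjusted p = 3.69e-07), and in KO-labelled cells the log2 fold change was 0.07 (interval -0.017 to 0.16, adjusted p = 0.128). The annotated locus overlaps the protein-coding gene Luzp1.

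In fed cells no member differed between the genotypes by more than 0.41 on the log2 scale. Of the 9, 3 were higher in KO-labelled libraries, 3 lower and 3 did not pass the test, against 74.4% of all genes tested that were called (34.5% higher, 39.8% lower), and the median log2 fold change of the 9 was 0.073, against -0.063 for all genes tested. With library totals 5 were higher and 2 lower, and Kdm4c was not called (-0.092, adjusted p = 0.197). Kdm4b was higher by 0.37 ± 0.056 (adjusted p = 5.25e-06), Jmjd1c by 0.29 ± 0.043 (adjusted p = 3.8e-06) and Phf2 by 0.12 ± 0.043 (adjusted p = 0.0197). Kdm4a was lower at -0.41 ± 0.039 (adjusted p = 5.4e-09), Kdm1a at -0.26 ± 0.043 (adjusted p = 1.29e-05) and Kdm4c at -0.21 ± 0.063 (adjusted p = 0.00556). The calls of Phf2 and Kdm4c were lost when single fed libraries were left out: Phf2 stood at 0.083 (adjusted p = 0.167) without WT replicate 2, 0.12 (adjusted p = 0.066) without KO replicate 1 and 0.11 (adjusted p = 0.0737) without KO replicate 2, and Kdm4c at -0.17 (adjusted p = 0.0538) without WT replicate 1.

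After starvation 7 of the 9 were lower in the KO-labelled libraries, 1 was higher and 1 did not pass the test, against 79.6% of all genes called (41.9% higher, 37.7% lower). The largest differences were those of Kdm3a (-1.45, above), Phf8, which was 2.44-fold higher (log2 fold change 1.29 ± 0.081, adjusted p = 3.79e-12), and Kdm4c, 2.1-fold lower (-1.07 ± 0.057, adjusted p = 2.35e-13). Kdm4b (-0.61), Jmjd1c (-0.57), Kdm1a (-0.53), Phf2 (-0.45) and Kdm3b (-0.31) were also lower, with adjusted p from 4.59e-11 to 3.15e-07. Kdm4a was at -0.05 (interval -0.13 to 0.028, adjusted p = 0.215), but was called lower with DESeq2 and moved to -0.15 without starved WT replicate 1. The median of the 9 was -0.53, against 0.073 for all genes tested. With library totals the median gene stood at 0.39, the higher share of calls rose from 52.6% to 67.4%, and 6 members were lower and 2 higher. There Kdm3b no longer differed (0.0082, adjusted p = 0.853) and Kdm4a was called higher by 0.26 (adjusted p = 2e-06).

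Whether starvation acted differently in the genotypes was tested as an interaction, the response in KO-labelled cells minus that in WT. All 9 members passed, 7 with a lower response in KO-labelled cells and 2 with a higher one, against 64.5% of all genes called (34.1% higher, 30.4% lower). The interaction was -1.43 ± 0.059 for Kdm3a (adjusted p = 1.79e-14), -0.97 ± 0.075 for Kdm4b (adjusted p = 3.7e-10) and -0.86 for both Jmjd1c and Kdm4c (SE 0.06 and 0.085, adjusted p = 6.73e-11 and 1.51e-08). Smaller negative values were -0.57 ± 0.061 for Phf2, -0.38 ± 0.055 for Kdm3b and -0.26 ± 0.061 for Kdm1a, the last moving to -0.42 without starved WT replicate 2. Phf8 went the other way at 1.15 ± 0.11 (adjusted p = 7.49e-09), as did Kdm4a at 0.36. With library totals the higher share of all calls moved from 52.9% to 67.0%, 6 members were lower and 2 higher, and Kdm1a was no longer called (-0.064, adjusted p = 0.37). These interactions and the comparisons above share libraries and are not separate evidence.

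**Figure D3:**
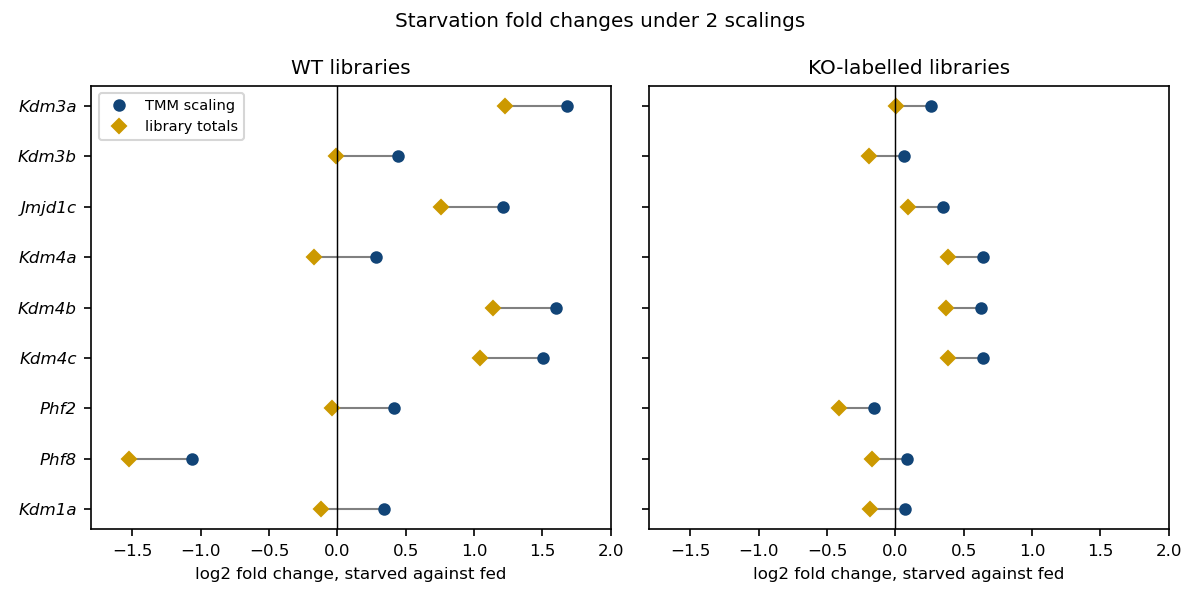
Log2 fold changes of starved against fed cells with TMM scaling (circles) and with library totals (diamonds), joined by a line for each of the 9 demethylases, in WT libraries on the left and KO-labelled ones on the right. Library totals shift every gene of a panel to the left by nearly the same amount, so that Kdm3a in WT cells moves from 1.68 to 1.23 and Kdm4a from 0.28 to -0.17.

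Levels of different genes were compared only per kilobase, with lengths of the matching GENCODE transcripts. In fed WT cells the order was Kdm1a (28.7 CPM per kilobase), Kdm4a (26.3), Phf2 and Kdm3b (16.0 each, overlapping), Kdm3a (11.6), Jmjd1c (7.71), Kdm4b (6.15), Kdm4c (5.3) and Phf8 (4.75). In starved WT cells Kdm3a moved to the top at 37.2 ± 1.4 (SD, n = 2), overlapping Kdm1a at 36.2 ± 0.89 (SD, n = 2), ahead of Kdm4a at 32.0, while Phf8 stayed last at 2.27. In KO-labelled cells Kdm3a kept the fifth place, at 11.4 fed and 13.6 starved, and the top was shared out between Kdm1a (23.8 fed, 25.1 starved) and Kdm4a (19.8 fed, 30.9 starved). Neighbours in this order overlapped also for Kdm3b and Phf2 in starved WT and for Kdm4b and Jmjd1c in starved KO-labelled cells. Kdm3a made up 9.27% to 9.9% of the sum of all 9 in 6 libraries and 18.3% and 18.5% in starved WT.

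**Figure D4:**
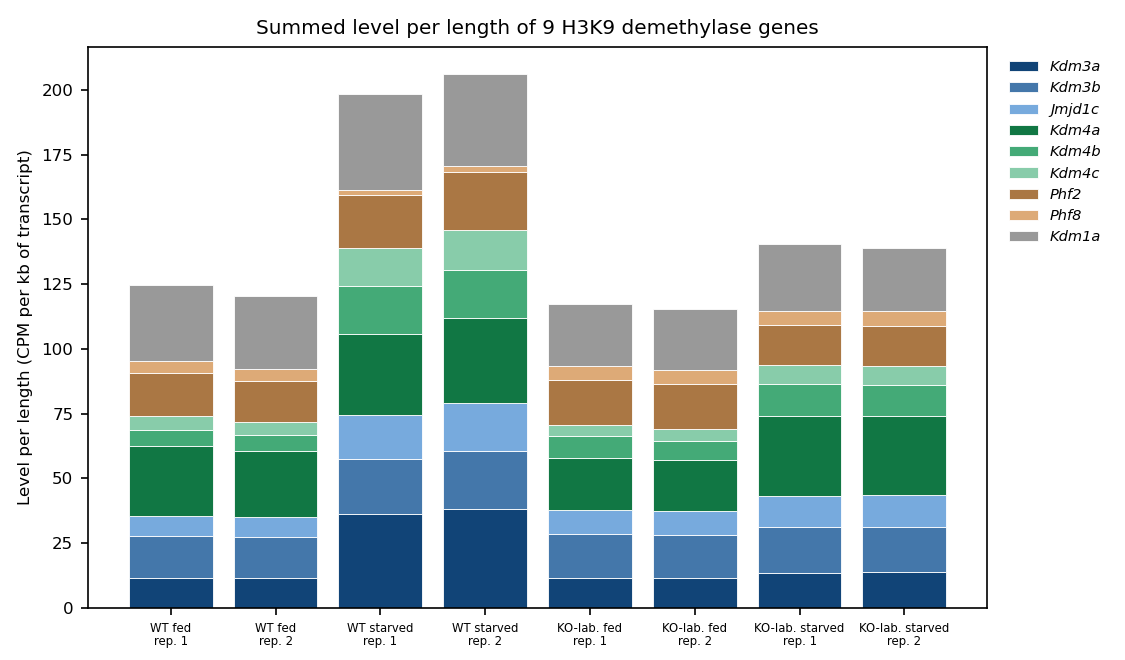
Stacked levels of the 9 demethylases in CPM per kilobase of transcript, 1 bar per library, with the axis starting at 0 and each gene as a coloured segment. The bars reach 198 and 206 in starved WT and 115 to 140 in the other 6 libraries, and the Kdm3a segment at the foot grows from a mean of 11.6 in fed to 37.2 in starved WT cells.

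Genes whose levels followed Kdm3a were ranked by Pearson's r of log2(CPM + 1) over the 8 libraries, among 10382 genes with a mean of at least 5 CPM. This is a description: the 8 points are 4 groups of 2 replicates that share their depth and scaling with every gene. The 6 most alike were Nr1d2, a nuclear receptor of the circadian clock (r = 0.9995), Neo1, a receptor for netrins (r = 0.9994), Ctdp1, a phosphatase of RNA polymerase II (r = 0.9986), Ppfibp1, a liprin (r = 0.9984), Mt1, a metallothionein (r = 0.9983), and Vezf1, a zinc finger factor (r = 0.9975). Nr1d2 stood at 87.61 and 89.14 CPM in fed WT, 333.8 and 339.6 in starved WT, and 83.5 to 106.1 in the KO-labelled libraries. Mt1 stood at 85.9 and 87.61 CPM, 1121 and 1053 CPM, and 83.44 to 136.8 CPM in the same order. Among the members, Kdm4c (r = 0.9757) and Kdm3b (r = 0.9724) were most like Kdm3a, at ranks 185 and 225, Kdm4a was least like it among those with a positive r (0.6331), and Phf8 was opposite (r = -0.9474).

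**Figure D5:**
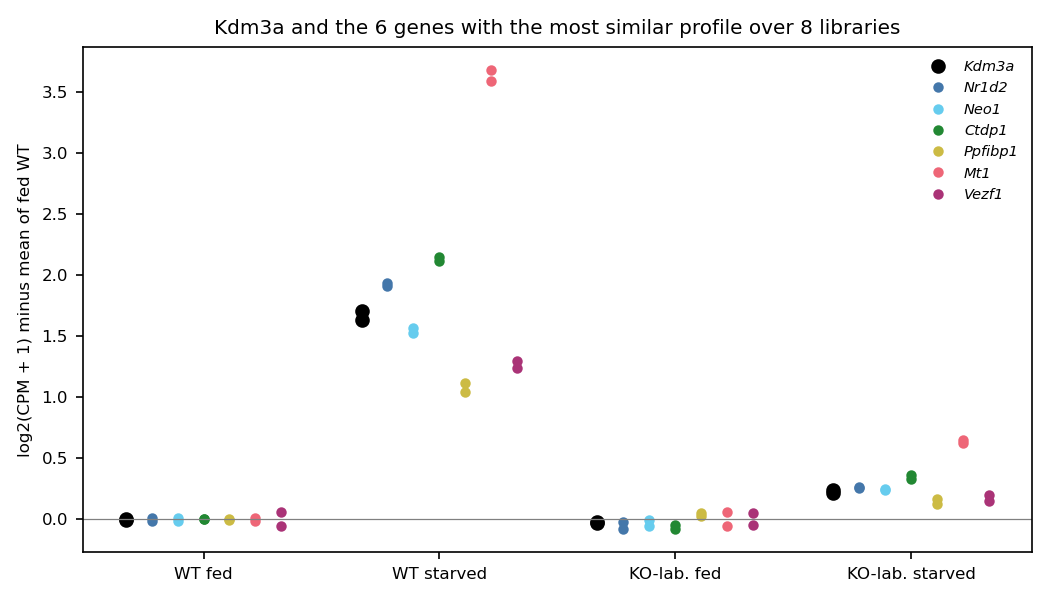
Level of Kdm3a (large black points) and of the 6 genes most like it, as log2(CPM + 1) minus the mean of the fed WT libraries, 1 point per library and 4 groups on the x axis. In all 7 genes both starved WT points lie above the other 6 libraries, with the widest margin for Mt1, at 1121 and 1053 CPM in starved WT.

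A list of 17 other genes held histone lysine demethylases and related JmjC proteins, among the latter Jmjd6, Mina and 2410016O06Rik. With starvation 8 rose and 8 fell in WT cells, and 4 rose and 9 fell in KO-labelled cells (4 and 11, and 3 and 12, with library totals). Of all genes tested, 36.7% rose and 44.8% fell in WT, and 39.4% and 40.3% in KO-labelled cells. For KO-labelled against WT, 34.5% were higher and 39.8% lower fed, and 41.9% and 37.7% starved. Jhdm1d, the older symbol of Kdm7a, an H3K9 and H3K27 demethylase, rose by 1.28 ± 0.089 in WT and 0.46 in KO-labelled cells and was 2.12 ± 0.081 higher in fed KO-labelled than in fed WT cells. Hr, the hairless corepressor with H3K9 demethylase activity, fell in both genotypes (-1.43 ± 0.46 and -1.89 ± 0.14) and was 4.81 ± 0.2 higher in fed KO-labelled cells. In WT cells Hr had few reads, with 34 and 43 counts fed and 20 and 2 starved, so its fall there is uncertain. Kdm4d, a KDM4 gene best known from testis, was near the lower limit of counting, with 12 and 6 counts in fed WT, 0 and 0 in starved WT, 12 and 9 in fed KO-labelled and 36 and 41 in starved KO-labelled libraries. Between genotypes, 11 were higher and 4 lower in fed KO-labelled cells (12 and 3 with library totals), and 7 higher and 8 lower in starved ones (9 and 4 with library totals). The lower ones include Kdm5d and Uty, which are Y-linked, and the higher ones Kdm6a, an X-linked H3K27 demethylase, at 0.95 ± 0.05 in fed and 0.65 ± 0.05 in starved cells. The interaction passed for 2 higher and 10 lower genes (2 and 6 with library totals), against 34.1% and 30.4% of all genes tested. Jmjd6, one of the related JmjC proteins, was at -1.52 ± 0.08.

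LSD1 acts in complexes with CoREST proteins and histone deacetylases. Of 14 partners, 5 rose and 7 fell in starved WT and 3 rose and 9 fell in starved KO-labelled cells (2 and 10, and 1 and 12, with library totals). Over all genes tested 36.7% rose and 44.8% fell in WT, and 39.4% and 40.3% in KO-labelled cells. Zfp217, a zinc finger partner, fell in WT (-3.03 ± 0.12) and in KO-labelled cells (-2.04 ± 0.081), as did Zmym3 (-1.29 ± 0.055 and -1.05 ± 0.053). Hdac1, a deacetylase, fell in both genotypes (-1.04 ± 0.038 and -0.97 ± 0.037). Gse1 had the largest interaction, -1.46 ± 0.06. In starved KO-labelled against starved WT cells, where 41.9% of all genes tested were higher and 37.7% lower, 6 partners were higher and 8 lower (9 and 4 with library totals). Among them Zfp217 was higher at 2.10 ± 0.13, and Rcor2, one of the CoREST genes, was lower at -1.26 ± 0.17. In fed KO-labelled cells 8 were higher and 6 lower (8 and 5 with library totals), against 34.5% and 39.8% of all genes tested. Zfp217 was at 1.10 ± 0.076 there.

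Set against the demethylases are the enzymes that methylate H3K9 and the proteins that bind the mark. Of 13 H3K9 methyltransferases and readers, 6 rose and 7 fell in starved WT, and 3 rose and 7 fell in starved KO-labelled cells (2 and 9 in each with library totals). Over all genes tested 36.7% rose and 44.8% fell in WT, and 39.4% and 40.3% in KO-labelled cells. In KO-labelled against WT cells 3 were higher and 9 lower when fed (3 and 8 with library totals) and 2 higher and 10 lower when starved (4 and 5 with library totals). All genes tested gave 34.5% higher and 39.8% lower when fed, and 41.9% and 37.7% when starved. Cbx5, the heterochromatin protein HP1 alpha that binds methylated H3K9, fell with starvation in WT (-1.56 ± 0.032) and in KO-labelled cells (-1.09 ± 0.031). Ehmt2, the G9a methyltransferase that deposits the dimethyl mark Kdm3a removes, was at -1.18 ± 0.032 in starved KO-labelled against starved WT cells.

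Kdm3a and Kdm4b are known HIF targets. Of 20 other HIF target genes 11 rose and 4 fell in starved WT cells, against 36.7% and 44.8% of all genes tested. In starved KO-labelled cells 8 rose and 10 fell, against 39.4% and 40.3%. With library totals the counts were 8 and 9 in WT and 7 and 12 in KO-labelled cells. Ndrg1, a stress-response gene, rose by 4.37 ± 0.036 in WT and 3.37 ± 0.035 in KO-labelled cells, and Vegfa, the angiogenic growth factor, rose by 3.02 ± 0.042 and 1.56 ± 0.039. Pfkfb4 fell, at -1.95 ± 0.12 in WT and -0.64 ± 0.13 in KO-labelled cells. Pfkfb3, an activator of glycolysis, and Pdk1, which restrains entry of pyruvate into the tricarboxylic acid cycle, fell in KO-labelled cells (-1.67 ± 0.083 and -1.66 ± 0.064). In WT cells, by contrast, Pfkfb3 rose by 0.59 and Pdk1 was at -0.17 (adjusted p = 0.0569). In fed cells 16 of the 20 were higher in KO-labelled than in WT libraries and 3 lower (16 and 2 with library totals). All genes tested gave 34.5% higher and 39.8% lower there. The mitophagy receptor Bnip3 was at 2.56 ± 0.045 and Pdk1 at 2.00 ± 0.067. The interaction was lower for 16 and higher for 3 (13 and 4 with library totals), against 30.4% and 34.1% of all genes tested. For Bnip3 the interaction was -2.33 ± 0.062. The largest in size was of the opposite sign, Car9 at 2.80 ± 0.46, a gene at only 0.276 to 2.33 CPM.

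A further list held 15 genes that handle 2-oxoglutarate or iron, the cosubstrate and metal of the JmjC enzymes. With starvation 11 rose and 3 fell in WT, against 36.7% and 44.8% of all genes tested. In KO-labelled cells 12 rose and 2 fell, against 39.4% and 40.3% of all genes tested. The median of the list was 0.82 in each genotype. With library totals 9 rose and 6 fell with a median of 0.36 in WT, and 10 rose and 4 fell with a median of 0.56 in KO-labelled cells. The transaminase Got1 rose by 3.20 ± 0.039 and 3.45 ± 0.039, Gpt2, another transaminase, by 2.12 ± 0.047 and 2.92 ± 0.051, and the transferrin receptor Tfrc by 2.44 ± 0.04 and 1.40 ± 0.038. Idh1, the cytosolic isocitrate dehydrogenase that makes 2-oxoglutarate, fell in WT (-2.12 ± 0.082) and in KO-labelled cells (-1.76 ± 0.066). The interaction was called for 11 of the 15, 5 higher and 6 lower (9 and 4 with library totals), against 34.1% and 30.4% of all genes tested. Tfrc was at -1.04 ± 0.054.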

How the data were processed

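The deposited table holds raw read counts, 1 row for each of 31055 RefSeq transcripts. Named in the submitters' processing notes are mm9 (genome build), TopHat2 2.0.9 and bedtools. For strand, multi-mapping and filters the method is not stated there or in the labels, so reads in overlapping genes are uncertain. Every row named a gene, and 4 columns matching no sample in the labels were not used. Rows of a symbol repeat the same reads, so the row with the highest total stood for it.

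Counts were fitted with edgeR 4.0.16 in R 4.3.3 (TMM, filterByExpr, 4 group means over 8 libraries, 4 residual degrees of freedom), giving 14418 tested genes and a common biological coefficient of variation of 0.0341. The fit was also run on counts simulated from its own model with few changed genes. Such a run cannot check calls or scaling where most genes change, as here. Standard errors are the absolute log2 fold change divided by the square root of F. DESeq2 1.42.0, library totals, other filters, summed rows, fewer groups, a replicate block and leaving out each library were alternatives. Replicate numbers did not pair samples.

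The 9 genes, lists and comparisons were chosen with earlier results of these data known. All 9 were described. List genes were named, at most 4 per list and comparison, where called with an absolute log2 fold change above 1, though not always the largest. The 6 genes most like Kdm3a were named by r. Kdm6a and the marker genes given singly were named after their values were seen. Lengths came from GENCODE (GRCm38), paired by RefSeq identifier. Kdm3b sequence is not reported here.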

Additional observations from a re-analysis of the deposited data

Results flagged for a closer look

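For all 9 genes the starvation response differed between the genotypes by the interaction test (response in KO-labelled minus response in WT cells, edgeR's quasi-likelihood test with Benjamini-Hochberg adjustment, 64.5% of all genes tested called). The log2 differences were -1.43 for Kdm3a, -0.38 for Kdm3b, -0.86 for Jmjd1c, 0.36 for Kdm4a, -0.97 for Kdm4b, -0.86 for Kdm4c, -0.57 for Phf2, 1.15 for Phf8 and -0.26 for Kdm1a. Groups of 2 libraries are too small to look for outlying samples.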

How the results depend on the processing

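Of 45 results (9 genes in 5 comparisons), 29 kept their direction and call under every alternative run, and the counts of called genes stayed within 1.5 times the main ones in all 79 alternatives. Library totals turned the sign of 10: in starved WT cells Kdm3b (-0.011), Kdm4a (-0.17), Phf2 (-0.042) and Kdm1a (-0.12), in starved KO-labelled cells Kdm3b (-0.19), Phf8 (-0.17) and Kdm1a (-0.18), in fed cells Kdm3a between genotypes (0.091), and in starved cells between genotypes Kdm3b (0.0082) and Kdm4a (0.26). They also ended the call of Kdm3a in starved KO-labelled cells (0.0016). A filter of 5 CPM turned the values of Kdm3b (-0.028), Phf8 (-0.0051) and Kdm1a (-0.019) in starved KO-labelled cells, none of them called with TMM and the main filter. Kdm3a between genotypes in fed cells changed sign around 0 with that filter (0.022), DESeq2 (0.014) and only the groups compared (0.034), and lay between -0.031 and 0.039 when single libraries were left out. The causes were not tested.

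In fed cells Kdm3b and Phf8 were called higher in KO-labelled libraries with library totals (0.19 and 0.25), the 5 CPM filter (0.12 and 0.18), only the groups compared (0.13 and 0.19) and without either starved WT library (0.14 and 0.20), Kdm3b also with DESeq2 (0.11). Kdm4c lost its call there with library totals (-0.092), DESeq2 (-0.17) and only the groups compared (-0.15). In starved cells Kdm4a was called lower in KO-labelled libraries with DESeq2. Summed rows and no filter changed no call, and leaving out X- and Y-linked genes other than Phf8, an alternative chosen after seeing the data, changed none of the 50 results. The replicate block changed none either (11620, 11344, 10530, 11330 and 9153 called genes), and the deviations of same-numbered replicates correlated at -0.044 to 0.031.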
